A study of Drosophila melanogaster with 21 samples.

Results

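Male seminal fluid protein genes encode the proteins and peptides that a Drosophila melanogaster male makes in the accessory glands, the ejaculatory duct and the ejaculatory bulb and passes to the female in the ejaculate. The genes were taken as the probe sets whose gene symbol, current or as a synonym, is one of 36 names, which stand for 33 distinct genes because 3 names repeat a gene under another name. A probe set is the group of short oligonucleotides on the array that together measure a transcript. Of the 33 genes, 26 were measured, each by 1 probe set with a single gene symbol, out of 10844 genes measured in all. Acp33A, Acp53C14c, Acp54A1, Acp98AB, Dup99B, Est-6 and Mst57Db were not analysed here.

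RNA came from the lower reproductive tract of females, which per the labels comprised the upper part of the uterus, the organs that store sperm and the female accessory glands. All females were 3 days old and were kept at 23 C, and tracts of 12 to 40 females were pooled for each array. There were 5 arrays of unmated females and, of mated females, 6 arrays of tracts taken right after mating (0 h), with 4, 3 and 3 arrays at 3, 6 and 24 h after mating ended. No genotype, strain or treatment other than mating is named in the labels used here. The question put to these genes is whether RNA of the male glands is seen in the tract of the mated female. In pooled tissue, fewer cells of a type and less RNA per cell cannot be told apart.

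In males, the accessory glands release sex peptide (SP), ovulin (Acp26Aa) and other proteins into the seminal fluid. Inside the female these change egg laying, remating, sperm storage and feeding. Sex peptide is kept on stored sperm by a set of seminal proteins known as the sex peptide network, and acts through the female's sex peptide receptor. Seminal proteins are transferred as proteins, and their genes are known for strong transcription in the male glands.

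The array medians of all probe sets lay between 35.6 and 57.7 in the deposited signal units. The spermathecal protease gene Send1 had a geometric mean signal of 8665 over all 21 arrays, and the muscle myosin light chain gene Mlc2 had 11770. Not all markers of the labelled tissue were bright. Of 5 spermatheca and female accessory gland markers 1 to 5 exceeded, depending on the array, the brightest control for a foreign transcript, defined below, and of 4 muscle markers 3 to 4 did. Gld, lz and Hr39 had geometric means of 21.6, 20.5 and 31.2. Of 6 fat body markers 4 to 5 exceeded the brightest foreign control in an array, and 1 of them, the yolk protein gene Yp1, had a geometric mean of 26250. Chorion and vitelline membrane genes, which mark late ovarian follicles, varied between arrays, and Cp36 ran from 110.4 to 16070.3. Their median log2 changes at 0, 3, 6 and 24 h against unmated females were 0.71, -0.04, -0.32 and 0.75, with 8, 4, 3 and 8 of 9 genes above 0, and 0 of 9 passed the limma test described below. From 3 to 9 of them exceeded the brightest foreign control in an array. The part of these cells in the changes of the seminal fluid protein genes was not tested. The spermathecal gene Send2 had a geometric mean of 67.0 in unmated females and 9935 at 3 h, a log2 change of 7.21. Of the 5 spermatheca and female accessory gland markers, the limma test called 1 higher at 3 h and 1 at 6 h. It called 0 of them at 0 h and 24 h. Over all probe sets 0%, 0.115%, 1.84% and 0% were called at 0, 3, 6 and 24 h. The numbers that the labels give the arrays form 6 blocks with gaps between them. These blocks are an inference from the numbering, and no label calls them batches. No block holds unmated females together with females at 0 h or 6 h.

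The seminal fluid protein genes gave dim signals in every group, those of unmated females included. The array carries 23 control probe sets for bacterial, mouse and yeast transcripts, here called foreign controls, which serve as a measure of background. They were chosen for this purpose after the data had been seen. In a single array the brightest foreign control read between 17.7 and 59.6 and the median foreign control between 3.2 and 13.4. Between 0 and 5 of the 26 genes, with a median of 3, read above the brightest foreign control of their array, against 47.2% to 69.9% of all 13966 probe sets tested. Over all arrays this made 61 of 546 values, or 11.2%. A probe set's signal also depends on its own oligonucleotides, so these counts describe a place within the array and are not a detection call.

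In 15 of the 26 genes no array exceeded its brightest foreign control, and in 8 genes 1 to 5 arrays did. The other 3 were SP in 17 of 21 arrays, Anp, the andropin gene of the ejaculatory duct, in 15, and the accessory gland transcript Mst57Da in 12. These were also the only members among the brighter of all probe sets, split at the median. All 3 exceeded the control in arrays of unmated females too. The number of genes above the control ran from 2 to 3 in arrays of unmated females and from 1 to 4 at 0 h. It ran from 2 to 5 at 3 h, from 0 to 5 at 6 h and from 3 to 4 at 24 h. The brightest control differs between arrays, from 17.7 to 59.6, so these counts depend on it as well as on the genes.

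**Figure D1:**
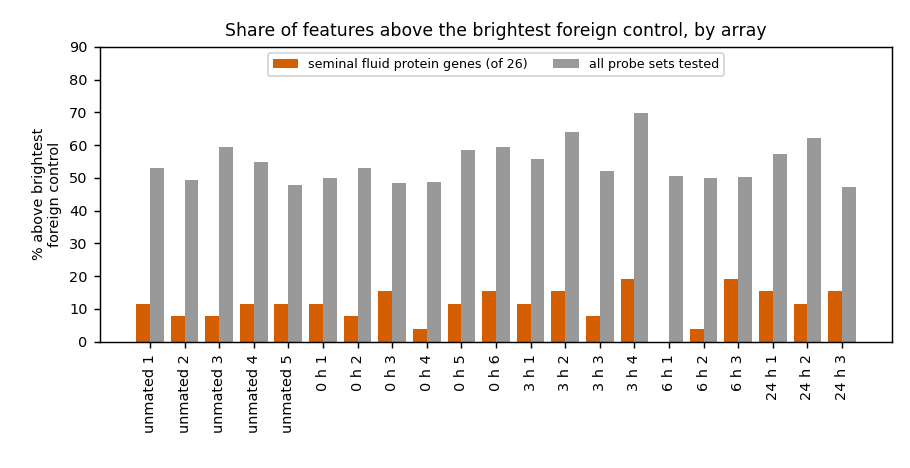
Bars give, for each of the 21 arrays, the percentage of the 26 seminal fluid protein genes (orange) and of all 13966 probe sets (grey) whose signal is above the brightest foreign control probe set of that array. The orange bars stand between 0 and 5 genes of 26 in every array, before and after mating, and the grey bars between 47.2% and 69.9%.

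No seminal fluid protein gene passed the test in any comparison. The test was limma's moderated test on log2 signal with Benjamini-Hochberg adjustment over all 13966 probe sets at a threshold of 0.05, and 0 of 26 genes were called higher or lower at 0 h, where 0% of all probe sets were called. At 3 h 0 of 26 were called against 0.115% of all probe sets, and at 6 h 0 of 26 against 1.84%. At 24 h 0 of 26 were called against 0%, and in the comparison of 24 h with 0 h 0 of 26 against 0.0143%. The limma F test over the 5 groups called 0 of 26 genes and 0.344% of all probe sets. With backgrounds this small, a count of 0 among 26 genes is near the background in each comparison. The smallest adjusted p of a member in limma was 0.586 at 0 h and 0.266 at 3 h, both for Acp29AB. It was 0.224 at 6 h for lectin-46Cb and 0.554 at 24 h for Acp53C14a.

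At an unadjusted p under 0.05 in limma, 0 genes were higher in any comparison. The genes that were lower numbered 2, 7, 3 and 3 at 0, 3, 6 and 24 h, where 7.43%, 7.64%, 17.7% and 7.85% of all probe sets reached that p in either direction. For 24 h against 0 h, 1 gene was lower, against 5.46% of all probe sets.

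The upper ends of the intervals at 0 h depended on how the array-number blocks were treated. In the model without blocks, the upper end of the 95% interval was a 2.11-fold rise for the median gene, and the highest was 4.35-fold, for antr. It lay below 4-fold in 25 of 26 genes and below 2-fold in 11. At 3 h the median upper end was 1.39-fold and the highest 4.94-fold, at 6 h they were 2.01-fold and 8.39-fold, and at 24 h 1.80-fold and 5.19-fold. With the block as a fixed factor, which rests on the few groups that blocks share, the median upper end at 0 h was 3.79-fold and the highest 22.8-fold, for Mst57Da, and 13 of 26 genes lay below 4-fold and 8 below 2-fold. In that fit 17 of 26 changes at 0 h moved by more than 1.5-fold and 6 turned sign, among them Mst57Da at a log2 change of 2.06 ± 1.14 (SE). Acp36DE stood at -5.97 ± 1.05 and SP at -1.54 ± 0.76, with limma adjusted p of 0.803, 0.122 and 0.724 for the 3 genes. The changes that moved by more than 1.5-fold numbered 15 at 3 h, 18 at 6 h and 10 at 24 h, and 6, 8 and 4 turned sign. With the block as a random effect the median upper end at 0 h was 2.43-fold and the highest 5.50-fold, for Acp95EF. The bounds with a block were added after seeing the data. All bounds are ratios of array signal. Where background makes up part of a signal, the ratio of transcript amounts may be larger than the ratio of signals, and the share that background makes up was not tested.

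**Figure D2:**
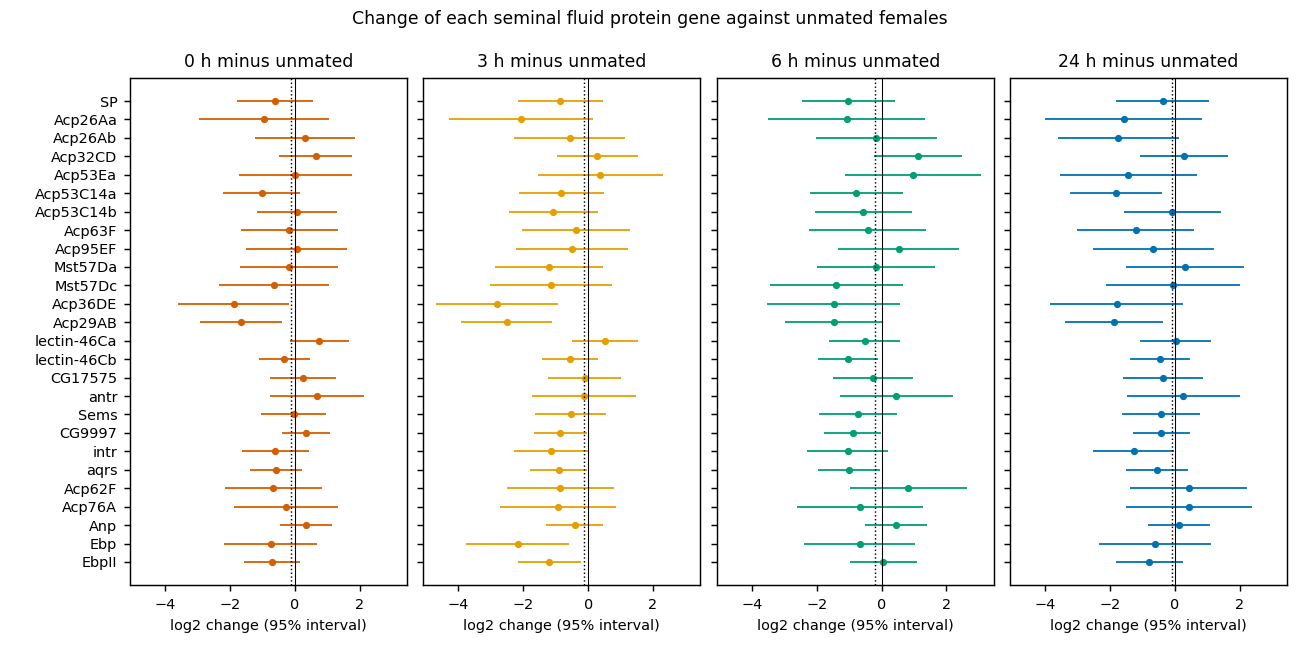
Points give the log2 change of each of the 26 seminal fluid protein genes against unmated females at 0, 3, 6 and 24 h, and lines the 95% interval of the limma model without blocks. The solid vertical line is no change and the dotted line the median over all probe sets. Most points lie left of 0, with 16, 23, 19 and 19 of the 26 genes below it.

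The signals of mated females lay on the lower side of those of unmated females. The median log2 changes of the 26 genes at 0, 3, 6 and 24 h were -0.23, -0.85, -0.61 and -0.44. Over all probe sets the medians were -0.10, -0.14, -0.21 and -0.10. Below 0 were 16, 23, 19 and 19 of the 26 genes, against 58.2%, 61.1%, 60.4% and 57.3% of all probe sets. These 4 comparisons share the same 5 arrays of unmated females.

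Other dim probe sets lay lower too. Probe sets split at their median over all arrays, and the dimmer ones had median log2 changes of -0.19, -0.35, -0.37 and -0.27 at 0, 3, 6 and 24 h, and the brighter ones -0.04, -0.01, -0.05 and 0.00. The 23 foreign controls, which match no fly transcript, had median log2 changes of -0.35, -0.65, -0.66 and -0.68. The foreign controls thus lay as low as the seminal fluid protein genes or lower at 0, 6 and 24 h, and less low at 3 h. The part of background in the members' changes was not tested.

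The arrays of unmated females fell apart in the median signal over the 26 genes. It was 7.0, 16.95, 6.3, 12.85 and 15.7 in unmated 1 to 5. At 0 h it ran from 7.55 through a median of 8.63 to 10.8, at 3 h from 5.15 to 7.05, at 6 h from 7.9 to 8.65 and at 24 h from 6.0 to 8.3. Unmated 2, 4 and 5 were higher than all 16 arrays of mated females, while unmated 1 and 3 lay inside the mated range. How far control transcripts read brighter at the 3' end than at the 5' end, as a log2 ratio, is a measure of RNA integrity, and it is high where transcripts are broken or copied only in part. The ratio was 2.02, 3.84, 1.93, 5.08 and 6.62 in unmated 1 to 5, so the 3 unmated arrays with the higher members also had the higher ratios. At 0 h the array with the highest ratio, 5.58, had the lowest member median, 7.55, and the array with the lowest ratio, 1.89, had 7.6. At 24 h the array with the highest ratio, 5.28, had the highest member median of its group, 8.3. With the ratio as a covariate in the limma model, the median log2 changes of the members were -0.27, -0.85, -0.51 and -0.45 at 0, 3, 6 and 24 h, close to those without it. Without the 4 arrays whose ratio is above 5, a choice made after seeing the data, the median log2 changes were -0.02, -0.60, -0.28 and -0.12 at 0, 3, 6 and 24 h.

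**Figure D3:**
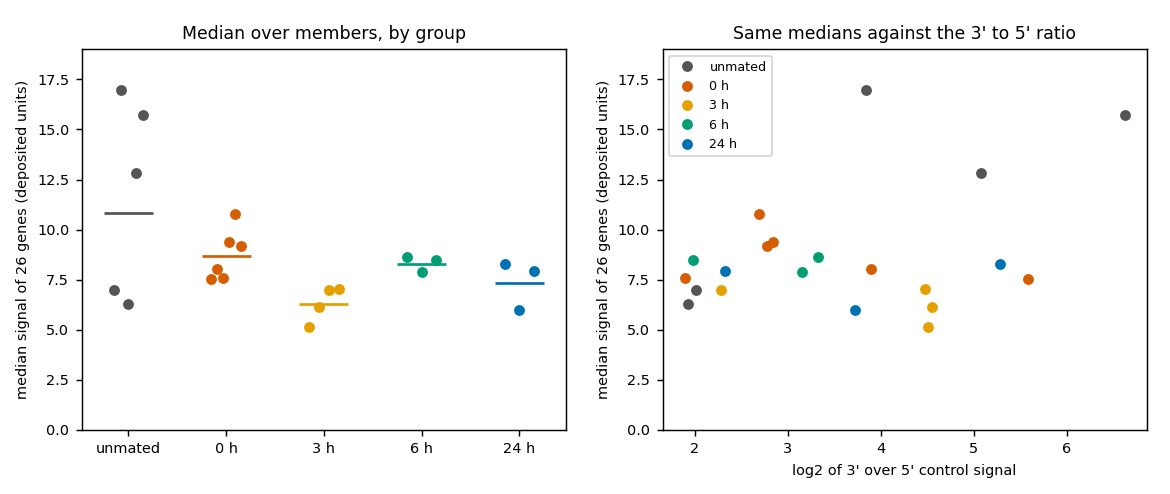
The left panel shows the median signal over the 26 seminal fluid protein genes in each array by group, with a bar at the geometric mean of the group. The right panel sets the same medians against the log2 ratio of 3' to 5' control signal. Unmated 2, 4 and 5, at 16.95, 12.85 and 15.7, stand above all other arrays, and their ratios are 3.84, 5.08 and 6.62.

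Within a block of array numbers the comparison with unmated females can be made only in the block that holds unmated 4 and 5. There the 1 array at 3 h had a median log2 change of -1.26 over the members, with 18 below 0 and 8 above, and the 1 array at 24 h had -0.59, with 19 below and 7 above. Over all probe sets these medians were -0.10 and -0.05. In another block, the 1 array at 24 h against 2 arrays at 0 h had a member median of -0.57 and a median over all probe sets of 0.08. With 1 array on a side these values have no test. No block gives a value for 0 h or 6 h against unmated females. The reference arrays of the 3 h and 24 h values, unmated 4 and 5, had member median signals of 12.85 and 15.7. Unmated 1 and 3, which are in another block, had 7.0 and 6.3. These values therefore rest on unmated arrays with high member signals. The blocks are linked through shared groups, so a model with the block as a fixed factor could be fitted, and its member medians were -0.42, -1.11, -0.57 and -0.87 at 0, 3, 6 and 24 h.

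Sex peptide (SP) is the hormone that lowers a mated female's receptivity and raises her egg laying. Its probe set read 57.4, 79.8, 58.2, 82.0 and 66.1 in the 5 arrays of unmated females. At 0 h it ran from 7.6 through a median of 55.35 to 95.3. It then read 33.6, 46.7, 54.4 and 23.0 at 3 h, 10.8, 46 and 75.3 at 6 h, and 36, 38.5 and 102.5 at 24 h. The groups overlapped at 0, 6 and 24 h, while all 4 arrays at 3 h were below all unmated arrays. Groups failed to overlap downwards at 3 h in 1.75% of all probe sets, and among the members in 2, SP and Acp29AB. The log2 change of SP was -0.61 ± 0.57 (SE), -0.86 ± 0.63, -1.02 ± 0.68 and -0.38 ± 0.68 at 0, 3, 6 and 24 h, and the limma adjusted p was 0.844, 0.825, 0.458 and 0.928.

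Acp26Aa encodes ovulin, the prohormone that stimulates ovulation. In unmated females it read 11.9, 27.3, 1.5, 22.4 and 2.6. The range at 0 h was 1.5 to 11.4 with a median of 3.4, and no value at 0 h reached the 3 higher unmated values. Later readings were 0.9, 1.9, 7.8 and 0.9 at 3 h, 6.7, 7.6 and 1.0 at 6 h, and 21.0, 0.6 and 1.4 at 24 h. All groups overlapped with the unmated group, and no array exceeded its brightest foreign control. Its log2 change was -0.95 ± 0.96 (SE) at 0 h and -2.06 ± 1.06 at 3 h, with limma adjusted p of 0.850 and 0.697. At 6 h it was -1.07 ± 1.16 and at 24 h -1.58 ± 1.16, with adjusted p of 0.677 and 0.780.

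Mst57Da, an accessory gland transcript, was the third gene often above the foreign controls. It read 59.3, 85.5, 52.2, 31.0 and 49.1 in unmated females and from 7.7 through 66.8 to 94.8 at 0 h. At 3 h it read 13.2, 16.1, 17.7 and 71.3, at 6 h 26, 12.9 and 311.4, and at 24 h 64.7, 48.6 and 88. The value of 311.4 in 1 array at 6 h was the highest of any member in any array, and the 2 other arrays at 6 h were below all unmated ones. Log2 changes were -0.18 ± 0.72 (SE), -1.21 ± 0.80, -0.16 ± 0.87 and 0.31 ± 0.87 at 0, 3, 6 and 24 h, with limma adjusted p of 0.967, 0.796, 0.947 and 0.964.

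Mst57Dc, from the same gene cluster, read 1.9, 24.7, 4.6, 14.4 and 14.4 in unmated females and 2.4 to 15.6 with a median of 5.5 at 0 h. It read 1.6, 2.1, 30.5 and 2.1 at 3 h, 0.8, 7.9 and 5.3 at 6 h, and 17.4, 6.4 and 4.9 at 24 h. Every mated group overlapped with the unmated group. The log2 changes were -0.63 ± 0.82 (SE), -1.15 ± 0.90, -1.40 ± 0.98 and -0.06 ± 0.98 at 0, 3, 6 and 24 h, with limma adjusted p of 0.883, 0.843, 0.482 and 0.994.

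Acp53C14a and Acp53Ea belong to a cluster of related accessory gland peptide genes. Acp53C14a read 14.0, 17.7, 11.4, 13.0 and 9.6 in unmated females, 2.0 to 9.8 with a median of 8.05 at 0 h, and 3.5, 4.0, 6.2 and 31.9 at 3 h. It read 10.1, 3.2 and 13.2 at 6 h and 3.9, 1.6 and 7.7 at 24 h. All 3 arrays at 24 h were below all unmated arrays, which held for no other member at 24 h and for 2.79% of all probe sets. At 0 h the groups overlapped only through the lowest unmated value. Log2 changes were -1.02 ± 0.57 (SE), -0.83 ± 0.63, -0.77 ± 0.68 and -1.82 ± 0.68 at 0, 3, 6 and 24 h, and the limma adjusted p was 0.709, 0.831, 0.592 and 0.554.

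Acp53Ea read 2.1, 16.9, 0.6, 3.5 and 2.6 in unmated females and 1.0 to 7.4 with a median of 2.85 at 0 h. At 3 h it read 0.9, 1.2, 18.5 and 9.5, at 6 h 1.9, 11.1 and 8.3, and at 24 h 1.9, 0.9 and 0.7. The unmated group overlapped with every mated group. Log2 changes were 0.02 ± 0.84 (SE), 0.37 ± 0.93, 0.96 ± 1.01 and -1.43 ± 1.01 at 0, 3, 6 and 24 h, with limma adjusted p of 0.996, 0.973, 0.664 and 0.766.

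Acp32CD, an accessory gland protein with the features of a prohormone, read 1.3, 5.2, 2.4, 6.9 and 3.5 in unmated females and 2.4 to 9.7 with a median of 5.8 at 0 h. It read 4.5, 1.7, 2.3 and 14.8 at 3 h, 11.9, 3.5 and 8.7 at 6 h, and 4.6, 4.2 and 3.3 at 24 h. Its log2 change of 1.11 ± 0.65 (SE) at 6 h was the highest of any member in any comparison with unmated females, and the limma adjusted p was 0.385. The groups overlapped at every time. At 0, 3 and 24 h it was 0.65 ± 0.54, 0.28 ± 0.60 and 0.28 ± 0.65, with adjusted p of 0.826, 0.965 and 0.954.

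The other 4 peptide genes, Acp26Ab, Acp53C14b, Acp63F and Acp95EF, ran from 0.7 to 116.9 over the 21 arrays. Acp26Ab, the neighbour of the ovulin gene, had its highest reading, 35.9, in unmated 5, and so did Acp53C14b at 40.9. The highest reading of Acp63F was 33.2, at 0 h, and that of Acp95EF was 116.9, in the third array at 6 h. In all, 11 peptide and prohormone genes were measured and 0 passed in either direction, with median log2 changes of -0.17, -0.83, -0.42 and -0.67 at 0, 3, 6 and 24 h.

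Acp36DE is the glycoprotein that a female needs to gather sperm into her storage organs. It read 4.6, 4.3, 3.1, 43.4 and 60.6 in unmated 1 to 5. At 0 h it ran from 1.4 through 3.65 to 5.5. It read 0.6, 0.9, 6.3 and 1.8 at 3 h, 12.0, 1.9 and 2.7 at 6 h, and 1.4, 3.4 and 6.6 at 24 h. Unmated 4 and 5 stood above every other array, the other 3 unmated arrays lay among the mated ones, and unmated 4 and 5 are also the unmated arrays with the highest 3' to 5' ratios. Its log2 changes of -1.89 ± 0.82 (SE) at 0 h and -2.81 ± 0.90 at 3 h were the lowest of any member at those times. The limma adjusted p was 0.656 and 0.453. At 6 h and 24 h the changes were -1.48 ± 0.98 and -1.80 ± 0.98, with adjusted p of 0.457 and 0.687.

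Acp29AB is a seminal lectin that helps sperm stay in storage. Unmated females gave 4.2, 17.0, 2.4, 9.1 and 4.8, and females at 0 h 0.6 to 6.3 with a median of 2.05. It read 0.5, 2.1, 0.8 and 1.4 at 3 h, 3.2, 2.6 and 1.2 at 6 h, and 4.4, 0.8 and 1.2 at 24 h. All 4 arrays at 3 h were below all unmated arrays, and the groups overlapped at the other times. At 3 h its log2 change was -2.52 ± 0.67 (SE), with the lowest adjusted p of any member at that time, 0.266 in limma. At 0 h it was -1.65 ± 0.61, at 6 h -1.47 ± 0.73 and at 24 h -1.88 ± 0.73, with adjusted p of 0.586, 0.302 and 0.571. No array of Acp29AB exceeded its brightest foreign control.

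The paired lectins lectin-46Ca and lectin-46Cb take part in placing sex peptide on sperm, and their genes lie next to each other. For lectin-46Ca unmated females read 14.6, 20.4, 11.6, 17.4 and 27.3, and females at 0 h 14.6 to 59.9 with a median of 28.5. It read 32.2, 63.0, 14.6 and 13.5 at 3 h, 10.7, 11.4 and 15.1 at 6 h, and 11.8, 22.7 and 21.3 at 24 h. The groups overlapped at all times, although 3 of 6 arrays at 0 h and 2 of 4 at 3 h were above the highest unmated value. Its log2 change of 0.76 ± 0.44 (SE) at 0 h was the highest of any member at that time, with a limma adjusted p of 0.723. At 3, 6 and 24 h it was 0.52 ± 0.48, -0.51 ± 0.52 and 0.03 ± 0.52, with adjusted p of 0.867, 0.656 and 0.994.

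For lectin-46Cb the geometric mean was 13.5 in unmated females and 10.8, 9.16, 6.57 and 9.78 at 0, 3, 6 and 24 h. All 3 arrays at 6 h were below all unmated arrays, as in 6.28% of all probe sets, and it was the single member for which this held at 6 h. Its log2 change there was -1.04 ± 0.45 (SE), with a limma adjusted p of 0.224.

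The cysteine-rich secretory protein gene antr, another part of the sex peptide network, read 8.9, 51.7, 6.0, 19.2 and 3.6 in unmated females. At 0 h it ran from 8.8 through 14.9 to 44.5. It read 2.5, 9.9, 52.2 and 9.2 at 3 h, 11.0, 25.3 and 13.5 at 6 h, and 12.3, 20.6 and 10.0 at 24 h. The unmated group spanned nearly the whole range of the mated groups. Log2 changes were 0.68 ± 0.69 (SE), -0.12 ± 0.77, 0.45 ± 0.83 and 0.26 ± 0.83 at 0, 3, 6 and 24 h, with limma adjusted p of 0.850, 0.990, 0.825 and 0.969. CG17575, a protein of the same family whose gene lies next to antr, ran from 4.9 to 51.4, and both of these ends were in unmated females.

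Among the storage protein, lectin and cysteine-rich secretory protein genes, 6 were measured and 0 passed in either direction. Their median log2 changes were -0.03, -0.34, -0.78 and -0.42 at 0, 3, 6 and 24 h.

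Acp62F is a trypsin inhibitor of the seminal fluid. In unmated females it read 6.2, 41.0, 7.5, 15.2 and 24.5, and at 0 h 4.2 to 49.5 with a median of 7.05. It read 5.2, 6.3, 6.9 and 19.9 at 3 h, 30.9, 12.7 and 46.2 at 6 h, and 38.7, 3.7 and 54.6 at 24 h. The unmated group overlapped with all mated groups. Log2 changes were -0.67 ± 0.72 (SE), -0.85 ± 0.79, 0.83 ± 0.86 and 0.42 ± 0.86 at 0, 3, 6 and 24 h, with limma adjusted p of 0.859, 0.870, 0.664 and 0.940.

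Acp76A, a protease inhibitor of the serpin family, read 16.3, 4.4, 7.3, 4.0 and 4.5 in unmated females and 1.3 to 21.9 with a median of 4.15 at 0 h. It read 7.0, 11.2, 1.8 and 0.8 at 3 h, 5.6, 6.1 and 1.8 at 6 h, and 2.8, 8.7 and 24.7 at 24 h. Again every mated group overlapped with the unmated group. Its log2 change of 0.44 ± 0.93 (SE) was the highest of any member at 24 h, with a limma adjusted p of 0.945. At 0, 3 and 6 h it was -0.27 ± 0.77, -0.94 ± 0.85 and -0.66 ± 0.93, with adjusted p of 0.953, 0.867 and 0.763.

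The other 4 genes of this class are the protease seminase (Sems), which starts the cleavage of ovulin and of Acp36DE in the female, and the protease homologues CG9997, aqrs and intr of the sex peptide network. Sems ran from 1.8 to 13.3, CG9997 from 4.7 to 29.0 and aqrs from 3.4 to 32.1. The range of intr was 8.0 to 84.1, and its 2 highest readings, 84.1 and 69.6, were in unmated 4 and 5, as for Acp36DE. CG9997 had the second lowest p of any member in the F test, 0.018 before and 0.303 after adjustment in limma, behind Acp29AB at 0.016 and 0.292. Over the 6 protease and inhibitor genes 0 passed in either direction, and the median log2 changes were -0.43, -0.88, -0.81 and -0.42.

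The sex peptide network as a whole, SP with the lectins, cysteine-rich secretory proteins, proteases and protease homologues above, had 9 measured genes. None of the 9 passed in either direction in limma, and the median log2 changes were -0.03, -0.56, -0.90 and -0.42 at 0, 3, 6 and 24 h.

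Anp encodes andropin, an antibacterial peptide of the ejaculatory duct. It read 44.5, 40.9, 17.5, 74.4 and 55.8 in unmated females and 27.1 to 79.3 with a median of 58.25 at 0 h. It read 40.2, 32.1, 21.7 and 36.1 at 3 h, 33.2, 62.4 and 92.6 at 6 h, and 45.9, 29.6 and 71.9 at 24 h. All groups overlapped, and Anp varied less among arrays of a group than most members. Log2 changes were 0.36 ± 0.38 (SE), -0.41 ± 0.42, 0.45 ± 0.46 and 0.13 ± 0.46 at 0, 3, 6 and 24 h, with limma adjusted p of 0.859, 0.882, 0.654 and 0.972. The upper end of the 95% interval at 0 h was 2.23-fold, and 3.37-fold with the block as a fixed factor.

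Ebp, for which Peb is another name, encodes an ejaculatory bulb protein of the mating plug. It read 6.6, 35.7, 3.6, 28.4 and 17.0 in unmated females and 3.8 to 18.5 with a median of 7.75 at 0 h. It read 3.1, 1.4, 10.6 and 1.6 at 3 h, 3.3, 9.4 and 18.5 at 6 h, and 28.5, 4.7 and 4.9 at 24 h. The 3 higher unmated readings were in unmated 2, 4 and 5, the same arrays that had the higher median over all members. Log2 changes were -0.75 ± 0.68 (SE), -2.18 ± 0.76, -0.67 ± 0.82 and -0.61 ± 0.82 at 0, 3, 6 and 24 h, with limma adjusted p of 0.844, 0.501, 0.720 and 0.897. EbpII, the neighbouring ejaculatory bulb gene, ran from 1.9 to 15.4. Of the 3 duct and bulb genes measured, 0 passed in either direction, and the medians were -0.69, -1.19, 0.06 and -0.61.

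**Figure D4:**
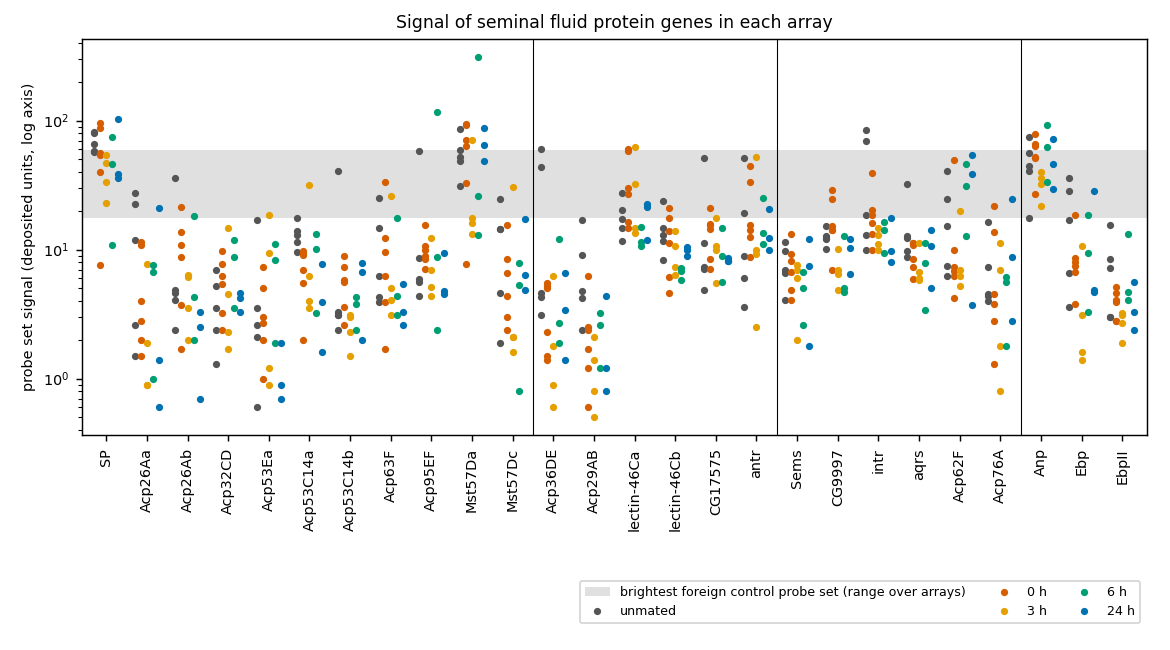
Each point is the signal of a seminal fluid protein gene in an array, in deposited units on a log axis, coloured by group, with vertical lines between peptides, storage proteins with lectins and cysteine-rich proteins, proteases with inhibitors, and duct and bulb products. The grey band spans the brightest foreign control over the arrays, 17.7 to 59.6, and most points lie in or below it in unmated as in mated females.

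The members did not all share an order of groups. The mean log2 signal was highest in unmated females for 12 genes, at 0 h for 6, at 3 h for 0, at 6 h for 6 and at 24 h for 2. It was lowest at 3 h for 11 genes, at 6 h for 7, at 24 h for 7 and in unmated females for 1. The single highest reading of a gene was in an unmated array for 11 genes, 5 of them in unmated 2 and 5 in unmated 5. At 0 h it was so for 3 genes, at 3 h for 6, at 6 h for 3 and at 24 h for 3. Unmated, 0 h, 3 h, 6 h and 24 h arrays made up 23.8%, 28.6%, 19.0%, 14.3% and 14.3% of all arrays. The same counts were not made over all probe sets. No member was higher in all arrays of a mated group than in all unmated arrays, while this held for 0.394%, 0.723%, 4.71% and 2.06% of all probe sets at 0, 3, 6 and 24 h. At 0 h no member was lower in all arrays either, against 0.759%.

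The spread within groups was wide. The standard deviation of log2 signal among arrays of a group ran from 0.57 to 1.73 over the members, with a median of 1.05, against 0.78 for all probe sets and 0.98 for the dimmer ones. Direct neighbours in the genome did not all share a direction. Of 7 pairs of measured members that are adjacent in the RefSeq gene order, 3 had the same sign of change at 0 h. Opposite signs were seen in Acp26Aa with Acp26Ab, at -0.95 and 0.31, and in CG9997 with aqrs, at 0.34 and -0.59.

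Other seminal, sperm and female genes were read in the same way. Of all probe sets, 0%, 0.115%, 1.84% and 0% were called at 0, 3, 6 and 24 h against unmated females. In an array 47.2% to 69.9% of all probe sets exceeded the brightest foreign control. The counts of each list below stand against these shares. Among 18 further seminal fluid genes, 0 passed in limma in either direction at any time. Their median log2 changes were 0.11, -0.26, -0.05 and 0.33 at 0, 3, 6 and 24 h, and 4 to 8 of them exceeded the brightest foreign control in an array. In that list the lipase-like gene CG17097 had a log2 change of 1.27 ± 0.42 (SE) at 24 h, with a limma adjusted p of 0.500. Spn53F, a serpin, had -2.82 ± 0.86 at 0 h with an adjusted p of 0.527, from geometric means of 11.8 in unmated females and 1.67 at 0 h. Qsox2, a sulfhydryl oxidase, had -1.97 ± 0.76 at 6 h with an adjusted p of 0.175.

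Of 22 sperm and testis genes 0 passed in limma in either direction, with median log2 changes of -0.03, -0.37, -0.39 and -0.43 at 0, 3, 6 and 24 h, and 4 to 10 exceeded the brightest foreign control. Among them alphaTub84D had 2 probe sets, and the 1 with the highest mean was taken. Whether female tissue also transcribes the genes of this list was not tested. The sperm protein gene Mst84Db had a geometric mean of 16.6 in unmated females and 47.5 at 6 h, a log2 change of 1.52 ± 0.54 (SE) with an adjusted p of 0.142. The testis tubulin betaTub85D had -1.67 ± 0.69 at 24 h with an adjusted p of 0.586, and fzo, which fuses sperm mitochondria, -1.35 ± 0.57 at 3 h with 0.591. The transcription factor gene prd, which the male accessory gland needs for its growth and secretion, had a geometric mean of 25.8 over all arrays and ran from 8.7 to 94.7.

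The genes listed for the female side of sex peptide signalling read brighter. Among them SPR had 2 probe sets and fru 4, and the 1 with the highest mean was taken. Each seminal fluid protein gene had only 1, so the choice of probe set favours the female genes in this contrast. Of 8 listed genes measured, 6 to 8 exceeded the brightest foreign control in every array, and 0 passed in limma in either direction. The sex peptide receptor gene SPR had a geometric mean of 421 in unmated females and 280.0, 341, 249 and 274 at 0, 3, 6 and 24 h. Its log2 change was -0.59 ± 0.30 (SE) at 0 h and -0.75 ± 0.36 at 6 h, with limma adjusted p of 0.680 and 0.278. Esp, a transporter that the female needs for the long response to sex peptide, had -0.84 ± 0.30 at 6 h with an adjusted p of 0.151, from a geometric mean of 1703 in unmated females. The sex differentiation gene dsx had -2.79 ± 0.91 at 6 h with an adjusted p of 0.111.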

How the data were processed

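Transcripts were measured on 21 single-colour oligonucleotide arrays. The deposited values are linear intensities per probe set. RMA is named in the submitters' processing notes, with no version, but the deposited intensity values are not on a log scale and all arrays share a 2% trimmed mean, so the authors' summary method is not settled. From the files, log2 of the intensity was taken with no pseudocount and no scaling. Of 14010 probe sets, 44 controls were left out and 13966 tested, of which 12443 have 1 gene symbol, 327 several and 1196 none. Names came from the platform annotation and RefSeq (Release 6 plus ISO1 MT), which also gave gene neighbours.

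limma 3.58.1 in R 4.3.3 fitted 1 mean for each of the 5 groups, with 2-sided tests and Benjamini-Hochberg adjustment at 0.05. All adjusted p-values come from it. The procedure was tested on simulated data. No 2 arrays of a group shared more than 0.508% of values. Nothing says that pools of a group came from separate cultures, so p-values measure only the spread between pools. The main model has no block term, so differences between array-number blocks enter that spread and the group differences. In the fit with the block as a random effect, the correlation between arrays of a block was 0.311. The number of arrays limits the precision.

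Genes given in full were those that passed, had 1 of the 3 highest or lowest changes at a time, exceeded the array median in a group, or are the best known of their class. From other lists at most 3 genes with the smallest p were named. The members and lists were chosen with earlier results of these data known. Alternatives covered normalization, an added 16, a filter on dim probe sets, blocks of array numbers, weights and variance moderation. They also covered probe set choice, symbol matching, the 3' to 5' ratio, the groups fitted and each array left out.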

Additional observations from a re-analysis of the deposited data

Results flagged for a closer look

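Single readings stood apart from their group in 8 of 78 sets of 4 to 6 arrays tested, by a test on the gap to the nearest reading relative to the range. Chance marks about 1 in 20 such groups. In unmated 5, Acp26Ab read 35.9 with the nearest array at 4.9, Acp53C14b read 40.9 with the nearest at 3.3, and aqrs read 32.1 with the nearest at 12.7. In unmated 2, Acp95EF read 57.8 with the nearest at 8.6. At 0 h, SP read 7.6 in array 2 with the nearest at 40.3, Acp53C14a read 2.0 in array 3 with the nearest at 5.5, and Acp62F read 49.5 in array 5 with the nearest at 10.0. At 3 h, Mst57Dc read 30.5 in array 3 with the nearest at 2.1. Of the 4 readings in unmated females, 3 were in the array with the highest 3' to 5' ratio, 6.62. Unmated 2 had a ratio of 3.84. The flagged mated arrays had lower ratios than unmated 5, at 3.90, 1.89 and 2.69 in arrays 2, 3 and 5 at 0 h. For array 3 at 3 h the ratio was 2.28. A link between these readings and the ratio was not tested.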

How the results depend on the processing

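No member passed in any of the 5 comparisons under any of 35 alternatives, nor in the F test under 34. The alternatives on probe set choice and on matching by current symbol repeat the main fit. Each measured gene has 1 probe set and was matched by its current symbol, so these alternatives could not differ. The smallest limma adjusted p was 0.0734, for intr at 24 h with the array-number block as a fixed factor. In the main model the log2 change of intr at 24 h was -1.27, and its highest readings were 84.1 and 69.6, in unmated 4 and 5. The median log2 change of the members ranged from -0.42 to -0.02 at 0 h, from -1.11 to -0.29 at 3 h, from -0.71 to -0.14 at 6 h, from -0.87 to 0.13 at 24 h, and from -0.42 to 0.23 for 24 h against 0 h. It moved by more than the spread between arrays with 16 added before the log (-0.29 at 3 h and -0.22 at 6 h), with quantile normalization (-0.14 at 6 h), and with the block as a fixed factor (-0.87 at 24 h). It also did so without the dimmer probe sets, which leaves 3 members and gives -0.16 at 6 h, 0.13 at 24 h and 0.23 for 24 h against 0 h. The last 2 signs turned, and fewer genes were summarised there. With the ratio of 3' to 5' signal as a covariate no median moved by more than that spread. The cause of the other shifts was not tested. No paired analysis was possible because the sample names in the labels share at most 1 number between any 2 groups. Most members lay near the level of the foreign controls, which limits what a low reading can show.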
